A study of Mus musculus with 50 samples.

Results

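Angiotensinogen (Agt) is the only precursor of the angiotensin peptides, and it was followed here in the testis and the spinal cord of wobbler mice. It was found by its gene symbol in the platform annotation and is held by 1 probe (number 20139) of the 20355 probes on the array, of which 14030 carry exactly 1 gene symbol. The gene was selected on its testis ratio, and its cord ratio, its rank and its likeness to other genes were named in the same choice, so all values of Agt below are a description and carry no test. Wobbler mice have the genotype wr/wr, a recessive allele of Vps54, whose product belongs to the complex that brings endosome-derived vesicles back to the Golgi. They lose motor neurons, and the males are sterile because their spermatids do not form a normal acrosome.

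The testis group held 10 wr/wr RNAs, 1 per mouse, each compared on 4 arrays with a single pool of wild-type (wt) testis RNA. The spinal cord group held 3 wr/wr RNAs, compared on 10 arrays with a single pool of wt cord RNA. Of these cord RNAs, pool1 and pool2 were each made from 4 of the same mice and the remaining RNA came from mouse 5995 alone. Each wt pool is listed with 10 mice, although the labelling protocol gives another number. Ages, the background strain and any treatment were not given in the sources used here. Every RNA was labelled with Cy5 on some of its arrays and with Cy3 on equally many others. The values are log2 ratios, read as wr/wr over wt, which is the likely reading from the order of the channels. The opposite reading would turn every sign below. If the sign instead turned with the dye, dyes that agree would cancel, and the mean testis ratio of Agt would be -0.037. Because only ratios were used, no level of Agt in either tissue can be given and the tissues could not be checked against their markers. In whole organs, fewer cells of a type and less RNA per cell cannot be told apart.

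Angiotensinogen is a secreted protein of the serpin family that has no known protease inhibitor activity. Renin cuts it to angiotensin I, the angiotensin-converting enzyme Ace cuts this to angiotensin II, and angiotensin II acts on the receptors encoded by Agtr1a, Agtr1b and Agtr2. The liver makes most of the circulating protein, while astrocytes are its main source in the central nervous system and adipocytes also produce it. In the testis, haploid germ cells make a short form of Ace from a promoter inside the gene, and male mice without it are subfertile.

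The promoter is shown as the place where transcription of Agt is annotated to start. It is the RefSeq stretch of 300 bases on the minus strand of GRCm38.p6, chr8:124569657-124569956, from 250 bases before the start site to 50 bases after it, written 5′ to 3′ with the TATA box match in capitals.
Agt promoter: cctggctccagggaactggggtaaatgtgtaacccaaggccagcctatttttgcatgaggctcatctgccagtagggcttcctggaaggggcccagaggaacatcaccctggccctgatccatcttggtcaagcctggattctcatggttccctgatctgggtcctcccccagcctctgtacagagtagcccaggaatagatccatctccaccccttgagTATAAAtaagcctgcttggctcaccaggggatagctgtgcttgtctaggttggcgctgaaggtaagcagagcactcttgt
The TATA box letters TATAAA were matched once, on the gene strand at position -30 from the start site, and 13.6% of the 32851 promoters of the same length hold them on either strand. The CCAAT box (CCAAT, in 37.4% of promoters), the GC box (GGGCGG, in 35.7%), the steroid receptor half-site (AGAACA, in 19%) and the core of the steroidogenic factor 1 site (AAGGTCA, in 4.72%) had no match in this window on either strand. These matches describe letters only, and the arrays carry no measure of binding or of start site use.

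Agt was lower in the testis of every wr/wr mouse than in the wt pool. The mean log2 ratio was -1.41 ± 0.27 (SD, n = 10), a 2.65-fold lower signal in wr/wr testis. Its lowest values were -1.79 in mouse 5997, -1.63 in mouse 5905 and -1.59 in mouse 5906. A middle group lay between -1.48 and -1.35, with mouse 5995 at -1.48, mouse 6335 at -1.46, mouse 5907 at -1.44, mouse 6163 at -1.39 and mouse 6069 at -1.35. The values nearest to 0 were -1.0 in mouse 6493 and -0.93 in mouse 6065. As folds, Agt was thus between 3.45-fold lower in mouse 5997 and 1.90-fold lower in mouse 6065.

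Most of the mice lay close to each other when the arrays were not scaled. The SD over the 10 mice was 0.266, beside an SD of 0.237 between arrays of 1 RNA and 1 dye and an SD of 0.35 of the difference Cy5 minus Cy3. Sorted by Agt, neighbouring testis RNAs were 0.02 to 0.16 apart, except for a gap of 0.35 between mice 6069 and 6493. Taken from the dye differences, the SD of a difference between the means of 2 testis RNAs was 0.249. The gaps of 0.02 to 0.16 were smaller than this, and the gap of 0.35 was larger. Because the RNAs were sorted by Agt first, small gaps are built in. The gaps therefore cannot show which mice differ.

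All 40 testis arrays gave a ratio below 0, with a median of -1.41 and a range from -1.93 to -0.35. Agt had a value on all 50 arrays. The array nearest to 0 belonged to mouse 6065 with the wr/wr RNA in Cy3, where the ratio of Agt ranked 3433 from the lowest among the probes with a value. On the median testis array the rank was 258.5, and on the best it was 54. The median absolute deviation over all probes was 0.284 to 0.443 on the arrays of mouse 6065, beside 0.121 to 0.443 over all 40 testis arrays. Its part in the ratio of that mouse was not tested. The dyes gave nearly the same mean, -1.44 ± 0.25 on Cy5 arrays and -1.37 ± 0.38 on Cy3 arrays (SD, n = 10 each). The Cy5 mean was above the Cy3 mean in 4 of 10 mice, and the difference Cy5 minus Cy3 averaged -0.07 ± 0.35.

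**Figure D1:**
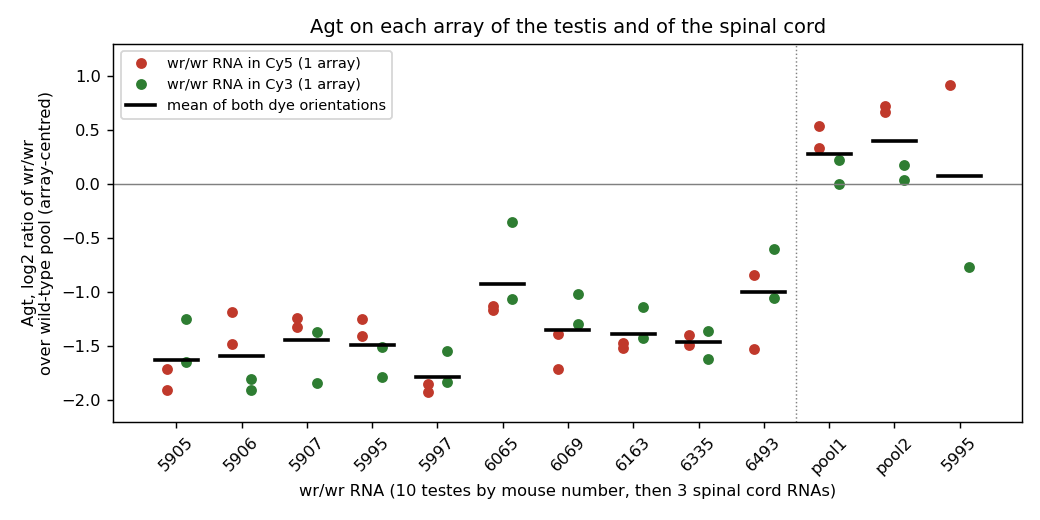
Agt on each array, as the array-centred log2 ratio of wr/wr over wild type (y axis) for 10 testis RNAs and 3 spinal cord RNAs (x axis), with the wr/wr RNA in Cy5 (red) or Cy3 (green) and a bar at the mean of both dye orientations. All 40 testis points lie below 0, while 9 of 10 cord points lie above 0 and the arrays of the cord of mouse 5995 lie at 0.917 in Cy5 and -0.763 in Cy3.

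Ordered by the mean testis ratio, Agt stood at rank 29 from the lowest of the 20218 probes measured in at least 8 of 10 mice, and 30 probes had a larger mean in size. By dye, it was at rank 13 of 20315 probes on the Cy5 arrays and at rank 170 of 20327 on the Cy3 arrays. Among the 14982 probes with a value on every testis array, 27 were below 0 on all of them and 4 were above 0 on all of them. Within those 27, Agt had rank 6 by its mean and rank 5 by its array nearest to 0.

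**Figure D2:**
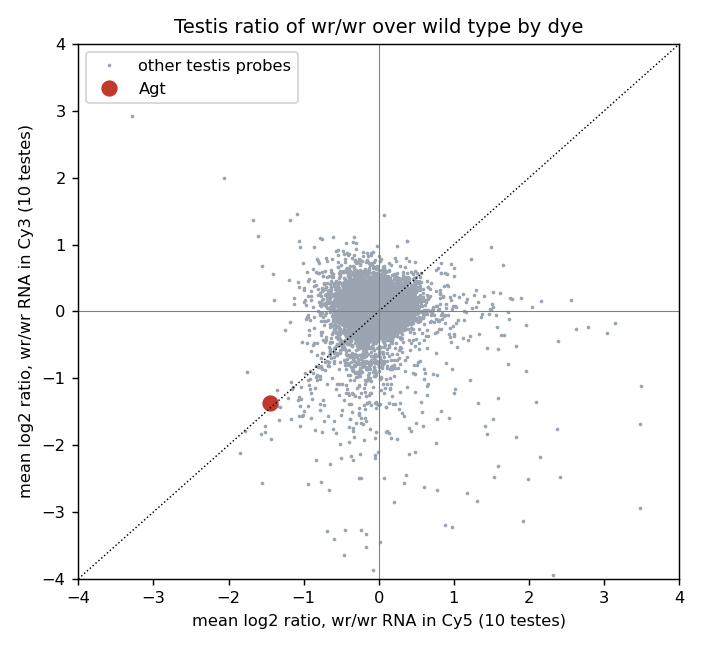
Mean log2 ratio of wr/wr over wild type in the testis with the wr/wr RNA in Cy5 (x axis) and in Cy3 (y axis), 1 grey point per probe, Agt in red, and the dotted line where both dyes are equal. Agt lies at -1.44 and -1.37, close to that line, and 3 probes fall outside the plotted range of 4 in size.

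Among the large ratios in the testis, that of Agt had a small spread when the arrays were not scaled. A mean of 1 or more in size was found for 98 probes, 87 of them lower and 11 higher, and their median SD over mice was 2.66. The median SD over all testis probes was 0.173. Agt had the smallest SD of the 98, and the next, 0.275, belonged to a probe that carries no gene symbol in the annotation given here (number 19528). The SD of Agt was 0.50 with arrays scaled to a common median absolute deviation and 0.53 after quantile normalization. The SDs of the other probes were not compared under those settings. By limma's moderated test with Benjamini-Hochberg adjustment over all probes, 26 of the other 86 lower probes and 0 of the 11 higher probes passed at 0.05. Over all testis probes 2494 passed, which is 12.3%, with 7.28% called higher and 5.06% called lower. That number was 846 without mouse 6493, 1036 without mouse 6069 and 1549 with limma's trend and robust settings.

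**Figure D3:**
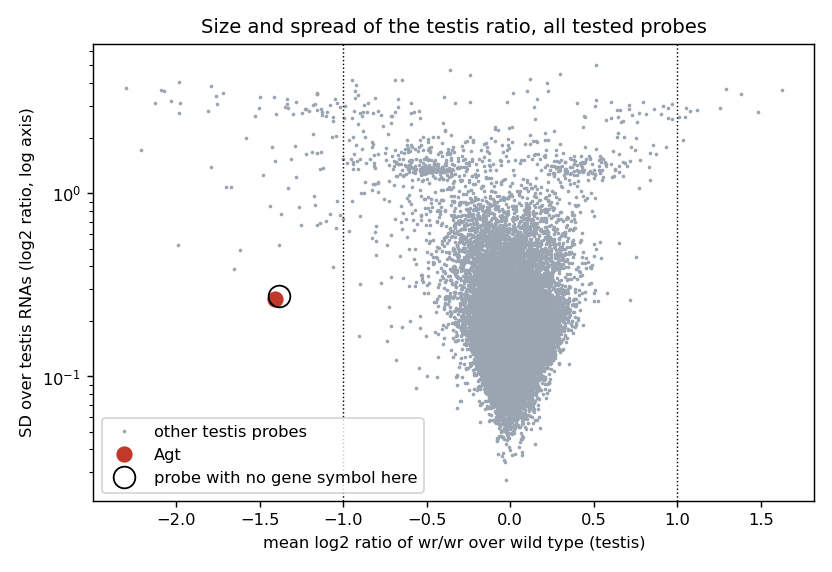
Mean log2 ratio of wr/wr over wild type in the testis (x axis) against its SD over the testis RNAs (y axis, log scale), 1 grey point per probe, with Agt in red, probe 19528 circled in black, and dotted lines at a mean of 1 in size. Agt, at -1.41 with an SD of 0.27, and probe 19528, at -1.38 with an SD of 0.28, have the lowest spread among the 98 probes beyond the dotted lines. The arrays were centred but not scaled.

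The probes next to Agt in that order had similar means and mostly wider spreads, and most of their genes had another probe with a ratio nearer to 0. Just inside stood a probe of Zfp207, a zinc finger protein, at -1.41 ± 3.36 (n = 8), with 1.77 on Cy5 arrays and -5.43 on Cy3 arrays, while another Zfp207 probe was at 0.02 ± 0.18. A probe of Atp5h, a subunit of mitochondrial ATP synthase, was at -1.48 ± 1.26 (n = 10), and its other probes were at -0.10 ± 0.42 and 0.24 ± 0.18. The sign of Zfp207 thus turned with the dye, and that of Atp5h with the probe.

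Just outside stood probes of Car5a, a mitochondrial carbonic anhydrase, at -1.41 ± 1.51 (n = 9), of Lcn2, a lipocalin that binds siderophores, at -1.39 ± 0.52 (n = 10), and of Nt5c, a nucleotidase, at -1.37 ± 0.77 (n = 10). The other probes of Car5a, at -0.04 ± 0.17, and of Lcn2, at -0.11 ± 0.15, were not called. The listed probes of Atp5h, Lcn2 and Nt5c were below 0 in every mouse, as Agt was, and those of Car5a and Zfp207 were not.

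Probe 19528 followed Agt in its means but only loosely from mouse to mouse. It averaged -1.38 ± 0.28 in wr/wr testis (SD, n = 10; limma adjusted p = 1.42e-05), was below 0 on all 40 testis arrays, and averaged 0.25 ± 0.20 in the cord (SD, n = 3). Across the 10 testis RNAs its r with Agt was 0.484. Its cord means by dye, -0.01 in Cy5 and 0.51 in Cy3, ran the other way from those of Agt given next. The probe has no gene symbol in the annotation given here and is not named.

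In the spinal cord the ratio of Agt was slightly above 0 in every wr/wr RNA. The dye-averaged log2 ratios were 0.28 in pool1, 0.41 in pool2 and 0.08 in mouse 5995, with a mean of 0.25 ± 0.17 (SD, n = 3), a 1.19-fold higher signal. Of the 17055 cord probes, 37.2% had a mean at least as large in size. Agt ranked 3331 from the highest among them.

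The cord value depended on the dye. On Cy5 arrays Agt was at 0.44 in pool1, 0.70 in pool2 and 0.92 in mouse 5995, and on Cy3 arrays it was at 0.12, 0.11 and -0.76 in the same order. The Cy5 mean was 0.69 ± 0.24 and the Cy3 mean was -0.18 ± 0.51 (SD, n = 3 each), so that the sign turned with the dye. The difference Cy5 minus Cy3 averaged 0.86 ± 0.72 in the cord. Mouse 5995, with 1 array per dye, held the widest gap, and without it the cord mean was 0.34. As for other probes, limma called 0 of 17055 in the cord (0% at an adjusted p under 0.05), and 1476 had an unadjusted p under 0.05.

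Within the same animals the testis ratio lay below the cord ratio in each case. The testes of the 4 mice of pool1 averaged -1.40 against 0.28 in their cord, those of pool2 averaged -1.38 against 0.41, and the testis of mouse 5995 was at -1.48 against 0.08. Paired in this way (the replicate block by animal), the differences were -1.68, -1.79 and -1.56, with a mean of -1.68. Unpaired, testis minus cord was -1.66, a 3.16-fold lower relative signal in the testis, at rank 105 from the lowest of 17005 probes. The ranges of the tissues did not overlap, with -1.79 to -0.93 in the testis and 0.08 to 0.41 in the cord, and the difference was not tested because Agt was chosen with these values known.

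The other genes of the renin-angiotensin system did not share the size of the testis ratio of Agt. Of 29 further genes listed for the system, 11 had a named probe. Renin, the angiotensin II receptors and the Mas1 receptor had none here, so the enzyme that acts on Agt and the receptors of its product were not measured. In wr/wr testis, 1 of the 11 was called higher, 0 were called lower and 10 were not called, beside 12.3% of all probes called. Of the 11, 4 had an unadjusted p under 0.05, beside 30.3% of all probes. Their median ratio was -0.08, against -0.01 over all testis probes.

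The called gene was Ace, which makes angiotensin II and in the testis is mainly the germ cell form. One of its probes (8792) averaged 0.30 ± 0.23 and was above 0 in 9 of 10 mice (SD, n = 10; limma adjusted p = 0.0222). This ratio lay in the Cy5 arrays, at 0.53, with 0.07 in the Cy3 arrays. The 2 other Ace probes averaged -0.14 ± 0.32 and -0.10 ± 0.14 and were not called, and with the 3 probes averaged the gene was at 0.02 and no longer called. The call was also lost without mouse 6069 (0.29) and without mouse 6493 (0.30). Ace3, a relative of Ace known from mouse testis and sperm, averaged -0.13 ± 0.13 (adjusted p = 0.063 by limma), and was at 0.05 on Cy5 arrays and -0.31 on Cy3 arrays. It passed on the Cy3 arrays alone and when mouse 5905 was left out.

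Among the proteins around the receptor and the peptidases, mean ratios over both dyes in wr/wr testis stayed within 0.15 of 0. Agtrap, which binds the type 1 receptor and promotes its uptake, averaged -0.08 ± 0.08. Cpa3, a mast cell carboxypeptidase, averaged -0.13 ± 0.23. The aminopeptidase Rnpep was at -0.04 ± 0.06, the neprilysin gene Mme at -0.08 ± 0.31, Thop1, which makes angiotensin-(1-7), at -0.12 ± 0.16, its relative Nln at -0.15 ± 0.41, and Prcp, which shortens angiotensin II, at 0.00 ± 0.08. Dpp3 was at -0.12 ± 1.02, and Hsd11b2, which protects the mineralocorticoid receptor from glucocorticoids, at 0.08 ± 0.17 (SD, n = 10 for each). On Cy5 and Cy3 arrays, Dpp3 was at -0.80 and 0.57, Prcp at 0.18 and -0.17, and Hsd11b2 at -0.06 and 0.22. None of these probes was called. A second probe of Mme was, at -0.15 ± 0.13 and below 0 in 10 of 10 mice (limma adjusted p = 0.044).

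In the cord, 0 of the 10 tested genes of the system were called, and their median was -0.06. At an unadjusted p under 0.05 there were 0 of them, beside 8.65% of all cord probes. Ace3 averaged 0.28 ± 0.14, Agtrap 0.22 ± 0.11, Ace -0.25 ± 0.26 and Rnpep -0.29 ± 0.23 (SD, n = 3 each). Ace3 and Agtrap were above 0 in all 3 cord RNAs, and Ace and Rnpep below 0 in all 3. The Ace values here are those of probe 8792. The other Ace probes had cord means of -0.16 and 0.01. Their testis minus cord values, 0.02 and -0.10, were not called. For the difference testis minus cord, 4 of the 10 passed, beside 21.2% of all probes, namely Ace at 0.55 (limma adjusted p = 0.0208), Ace3 at -0.41 (adjusted p = 0.00958), Agtrap at -0.30 (adjusted p = 0.0126) and Rnpep at 0.25 (adjusted p = 0.0485). This fit pools the spread of both tissues, although cord probes spread more, with a median SD of 0.264 against 0.173 in the testis. With RNAs weighted by the spread of their tissue, with Cy5 arrays alone and with cord and testis paired by animal, 0 of the 10 passed, and without the cord of mouse 5995, 2 passed.

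**Figure D4:**
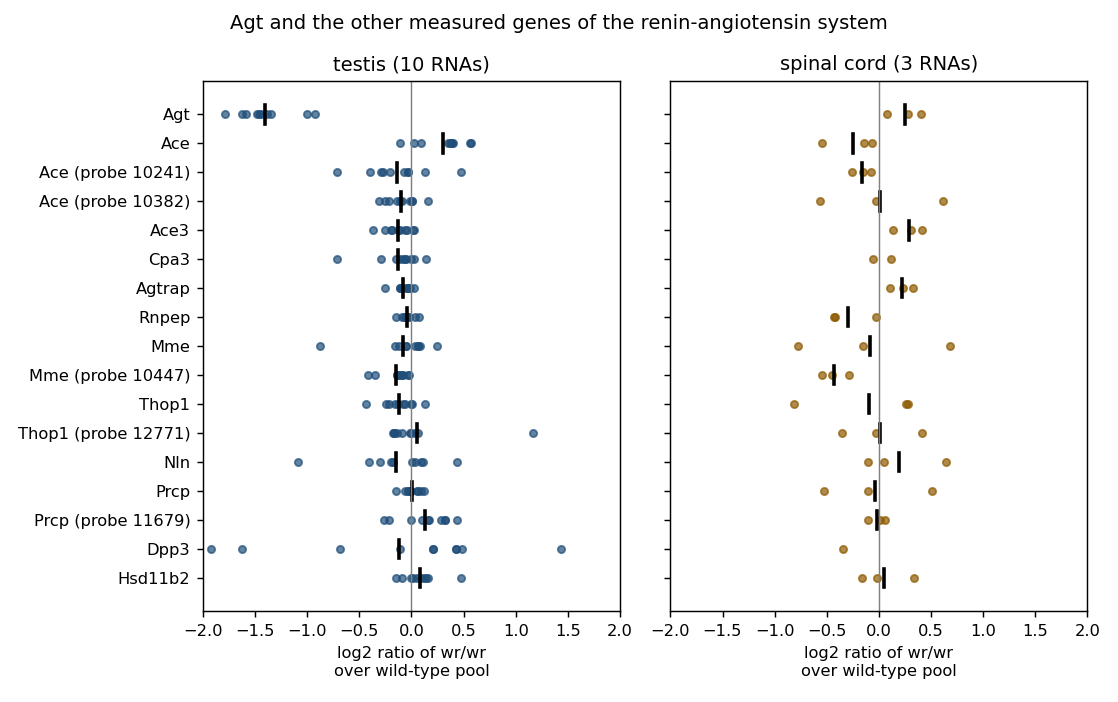
Log2 ratio of wr/wr over wild type (x axis) of Agt and the other measured renin-angiotensin genes (y axis), 1 point per RNA with a bar at the mean, for 10 testis RNAs (left) and 3 spinal cord RNAs (right). The testis points of Agt lie between -1.79 and -0.93. The other genes lie above them except Nln in mouse 6069 (-1.09) and Dpp3 in mice 5905 (-1.92) and 5906 (-1.63). The cord values of -7.16 for Cpa3 in mouse 5995 and of -4.13 for Dpp3 in pool1 fall outside the axis.

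Genes tied to Agt by regulation, source or family were counted in wr/wr testis, beside 12.3% of all probes called. Among transcription factors known to act on the Agt promoter, 1 of 9 was called, the thyroid hormone receptor Thrb at -0.12 ± 0.09 (limma adjusted p = 0.0473). The second Thrb probe was at -0.02 ± 0.19. The count was 0 with probes averaged, with values over 10 in size missing and on Cy3 arrays. It was also 0 with the trend and robust settings and without any 1 of 8 of the mice. Of the 9, 2 had an unadjusted p under 0.05 by limma, beside 30.3% of all probes. The glucocorticoid receptor Nr3c1 was at -0.01 ± 0.20 and the oestrogen receptor Esr1 at -0.04 ± 0.05.

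Of 12 genes that respond to glucocorticoids, which raise Agt in the liver, 0 were called with 1 probe per gene, beside 12.3% of all probes. Of the 12, 3 had an unadjusted p under 0.05, beside 30.3% of all probes. Lcn2 belongs to this list, and its probe at -1.39 described above was called (limma adjusted p = 0.00126), so with the probes of each gene averaged the count was 1. Per1 was at 0.06 ± 0.09 and Klf9 at -0.05 ± 0.07. Of 21 other plasma proteins of the liver, 1 was called, the hyaluronan-binding Itih2 at -1.28 ± 1.22 with a median of -0.81 (limma adjusted p = 0.0386). Mouse 5907, at -4.33, carried much of this mean, which was -0.94 without it. The count for plasma proteins was 0 with the trend and robust settings and without mouse 5906, 6065, 6069, 6335 or 6493. Of the 21, 6 had an unadjusted p under 0.05, beside 30.3% of all probes.

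Among 22 tested genes of the serpin family, to which Agt belongs, 0 were called, beside 12.3% of all probes. Their ratios ran from -0.46 to 0.20 with a median of -0.01. On chromosome 8, the 5 nearest measured genes on each side of Agt gave 0 calls of 10, beside the same 12.3%. The nearest, Cog2, a subunit of a Golgi tethering complex, was at 0.06 ± 0.16.

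Markers of several cell types also changed in wr/wr testis, and their part in the Agt ratio was not tested. Of 10 Leydig cell genes 5 were called lower, beside 5.06% of all probes, and 0 higher, and the median was -0.18 with a range over mice from -0.38 to -0.03. The 4 with the largest ratios were the prostaglandin synthase Ptgds at -1.62 ± 0.49 (adjusted p = 0.000295), the androgen-synthesis enzymes Cyp17a1 at -1.16 ± 0.67 (0.0118) and Hsd17b3 at -0.55 ± 0.11, and the epoxide hydrolase Ephx1 at -0.90 ± 0.17 (adjusted p = 1.42e-05), all by limma over 10 mice. Of the 10, 8 had a mean below 0. Hsd3b1 at 0.25 ± 0.28 and Fdx1 at 0.07 ± 0.14 were above 0 and not called. On Cy3 arrays, and without mouse 5906, 1 was called higher and 4 were called lower. Under the trend and robust settings 1 of the 10 was called, and Ptgds, Cyp17a1 and Ephx1 were not. Across the 10 mice the median of the list had r = -0.18 with Agt. Individually Ephx1 had r = 0.809, Cyp17a1 0.40, Hsd17b3 0.22 and Ptgds -0.44, so the called Leydig genes did not order the mice alike.

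Of 10 macrophage genes 4 were called lower in wr/wr testis, beside 5.06% of all probes, namely Cd68 at -0.37 ± 0.26, C1qa at -0.24 ± 0.19, Lyz2 at -0.18 ± 0.13 and C1qc at -0.15 ± 0.08, and the list median ran from -0.26 to -0.02 over mice. On Cy3 arrays 0 of them were called, and without mouse 6493 the count was 2. A second probe of Lyz2 was at 0.27 ± 0.39. Of the 10 macrophage genes, 6 had a mean below 0. Tyrobp at 0.24 ± 0.45, C1qb at 0.06 ± 0.25, Aif1 at 0.05 ± 0.38 and Mrc1 at 0.04 ± 0.19 were above 0 and not called. Of 10 Sertoli cell genes 6 were called higher, beside 7.28% of all probes, with the cystatin Cst12 at 0.72 ± 0.26, Ctsl at 0.44 ± 0.19, Clu at 0.39 ± 0.20 and Defb36 at 0.28 ± 0.17 as the largest, and a list median of 0.11 to 0.38 over mice. With a mouse left out, 4 to 7 of the Sertoli genes were called.

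Over all testis probes, 12.3% were called and 30.3% had an unadjusted p under 0.05, beside the testis counts that follow. Of 13 adipocyte genes 0 were called, with Adipoq at -0.03 ± 0.16 and Fabp4 at -0.03 ± 0.63, 4 at an unadjusted p under 0.05, and list medians from -0.23 to 0.02. Of 8 smooth muscle genes 0 were called (4 at an unadjusted p under 0.05), although 3 were called higher and 1 lower on Cy5 arrays. Of 11 endothelial genes 1 was called, the junction protein Esam at -0.15 ± 0.10, which was not called on Cy5 or on Cy3 arrays alone. Of 4 epididymis genes and 3 red blood cell genes 0 were called (0 and 1 at an unadjusted p under 0.05). The Hba-a1 probe counted was at -0.08 ± 0.22, but other Hba-a1 probes at 0.31, 0.33, 0.43 and 0.51 were called higher. With the probes of each gene averaged, 1 of the 3 red blood cell genes was called higher. Of 14 astrocyte genes in the cord 0 were called, beside 0 of all 17055 cord probes. Of the 14, 9 were above 0 and the median was 0.12, beside 0.25 for Agt. An unadjusted p under 0.05 was found for 5 of the 14, beside 8.65% of all cord probes. These 5 ran both ways, with Vim at 1.15, Gfap at 0.69 and Apoe at 0.53, but Glul at -0.48 and S100b at -0.57. A second Glul probe was at 1.23.

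The mouse-to-mouse pattern of Agt in the testis was compared with 13342 named probes, over the same 10 RNAs on the same arrays. A Pearson r of 0.8 or more was reached by 64 probes and of -0.8 or less by 83. The most alike were Cdc5l, a splicing factor, with r = 0.951, the synaptic vesicle protein Svop with 0.928, the histone chaperone Nap1l1 with 0.927, Lsm14a with 0.924, Fxyd2 with 0.909, Crnkl1 with 0.884, Celsr2 with 0.881, Maea with 0.879, Gpr137b with 0.878 and Smarca4 with 0.877. Crnkl1 is a splicing factor, Smarca4 the motor of a chromatin remodeller, Fxyd2 a regulator of the sodium pump and Celsr2 an adhesion receptor. Nap1l1, at 0.24 ± 0.14, and Smarca4, at 0.20 ± 0.11, were called higher, and the other 8 were not called. The most opposed were Rab29 with r = -0.951, Tango2 with -0.946, Endod1 with -0.939, L3mbtl2 with -0.935 and Slc35a5 with -0.935, none of them called. Of the 10 most alike genes, 6 had other probes, 12 in all, whose r with Agt ran from -0.54 to 0.56. The ratios of the most alike probes were small, so a gene most like Agt in the order of mice was not one with a similar mean.

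The order of the mice was poorly shared between the dyes. Agt's own Cy5 means and Cy3 means correlated at r = 0.42 over the 10 testis RNAs, and 0 of the 13342 probes reached 0.7 with Agt within both dyes. Cdc5l had 0.722 in Cy5 and 0.502 in Cy3, while Svop had -0.298 and 0.866, and Fxyd2 -0.151 and 0.779. The probes with the highest r in their weaker dye were Atp5mpl with 0.75 in Cy5 and 0.69 in Cy3, Kif5a with 0.693 and 0.768, Abca3 with 0.702 and 0.67, Atp5o with 0.711 and 0.654, and H2-DMa with 0.675 and 0.652. Without mice 6065 and 6493, which lay farthest from the median of Agt, r fell to 0.522 for Fxyd2 and 0.529 for Crnkl1 and was 0.942 for Cdc5l and -0.954 for Rab29.

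**Figure D5:**
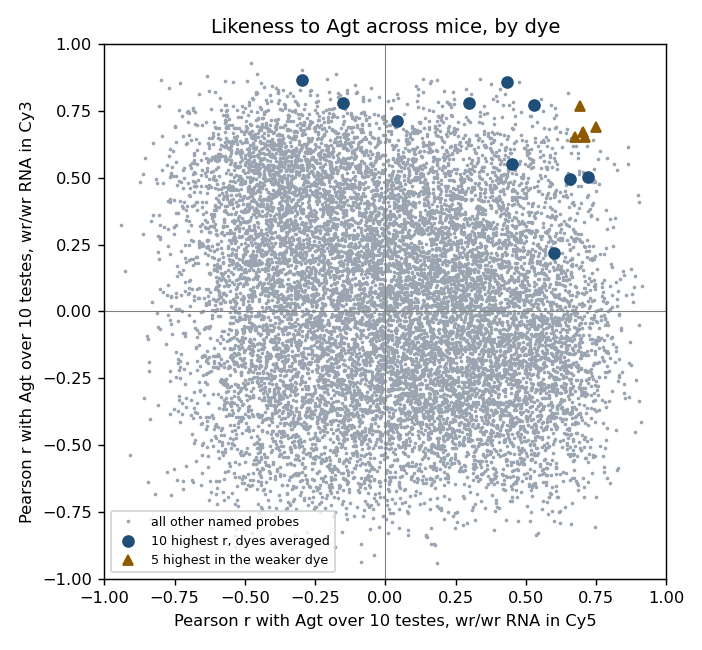
Pearson r with Agt over 10 testis RNAs for each of 13342 named probes, with the wr/wr RNA in Cy5 (x axis) and in Cy3 (y axis), the 10 highest dye-averaged r in blue and the 5 highest in the weaker dye as brown triangles. No probe reaches 0.7 on both axes, and 2 of the blue points, Svop and Fxyd2, lie below 0 in Cy5.

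Most of the other probes called at a large size did not order the mice as Agt did. Of the 54 named probes called at 0.5 or more in size, 47 were lower, and their r with Agt ran from -0.63 to 0.874 with a median of -0.13. The highest, named after their values were seen, were the extracellular matrix protein Spon1 at -0.73 ± 0.24 with r = 0.874, Ephx1 with 0.809 and the steroid enzyme Hsd3b3 at -0.74 ± 0.16 with 0.771. Without mice 6065 and 6493 these were 0.238 for Spon1, 0.646 for Ephx1 and 0.153 for Hsd3b3. Itih2 had r = -0.13. Other probes of Spon1 averaged -0.11 ± 0.10 and 0.15 ± 0.20 and were not called.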

How the data were processed

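Total RNA was reverse transcribed and labelled indirectly with Cy3 or Cy5, per the labels' protocols. The authors deposited for every probe on an array 1 log2 ratio, and no source used here gives its background correction, normalization, log base or direction. The log2 base was read from 1472 deposited values (0.149%, none of Agt) of 15.6 to 17.0 in size. Arrays of the same tissue and dye correlated at -0.04 or above, but weakly. The median r was 0.06 (Cy5) and 0.05 (Cy3) in the testis and 0.07 and 0.09 in the cord. These pairs share a dye, so they cannot show whether Cy5 and Cy3 arrays have the same direction. No sign was turned between the dyes, and turning the Cy3 arrays is an alternative given in the closing section.

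Each array was centred on its median. Arrays of 1 RNA were averaged within each dye and the dye means averaged, so each RNA is 1 replicate. Probes with both dyes in at least 8 testis RNAs, or all 3 cord RNAs, entered limma 3.58.1 (R 4.3.3; lmFit, then eBayes), which tested the mean against 0, with Benjamini-Hochberg adjustment over all of them at 0.05. Because 1 pool stands for the wild type, p-values leave out how wild-type mice vary. The number of arrays limits the precision. Descriptions used Python 3.11.15. The fits were tested on simulated data. Pairing by animal comes from the mouse numbers in the labels. Deviations of the cord RNAs and the testes of their mice correlated at -0.009, 0.005 and 0.008 across probes.

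Agt, the gene lists and the tests were chosen with earlier results of these data known. Named were Agt, all measured genes of the renin-angiotensin list, the 5 probes on each side of Agt by mean ratio (those with a symbol), the probes most and least like it over testis RNAs, up to 4 called members of each list by size, and its neighbours on the chromosome. Other list members named as examples, the astrocyte genes of the cord and Spon1 and Hsd3b3 were chosen after their values were seen. Names came from the platform annotation (6320 probes without a symbol, 5 with several). Where a gene had several probes, 1 was counted, the probe with most values.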

Additional observations from a re-analysis of the deposited data

Results flagged for a closer look

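In the testis, 1 mouse lay far from the other 9 in 4 of the 12 genes of the renin-angiotensin system looked at, by Dixon's criterion, which chance meets in about 1 of 20 groups. These were Cpa3 in mouse 6069 (-0.71, the others from -0.29 to 0.14), Agtrap in mouse 5907 (-0.26, the others from -0.11 to 0.02), Mme in mouse 6493 (-0.88, the others from -0.16 to 0.25) and Hsd11b2 in mouse 6493 (0.48, the others from -0.15 to 0.16). Agt had no such mouse.

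The counted probes of 5 genes of the system moved apart between the testis and the cord. Agt was below 0 in all 10 testis RNAs and above 0 in all 3 cord RNAs, with a difference of -1.66 that was not tested. For Ace (0.55), Ace3 (-0.41), Agtrap (-0.30) and Rnpep (0.25), testis minus cord passed limma's test with 1 pooled spread. With RNAs weighted by the spread of their tissue, 0 of these calls remained. The Ace value was that of probe 8792, and the other Ace probes, at 0.02 and -0.10, were not called.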

How the results depend on the processing

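The testis ratio of Agt stayed between -1.46 and -1.36 when a mouse was left out, and was -0.037 with the sign turned on Cy3 arrays, a setting under which dyes that agree cancel. The SD of Agt over mice was 0.50 with arrays scaled to a common median absolute deviation and 0.53 after quantile normalization, against 0.27 without. Its cord ratio was 0.18 to 0.34 with an RNA left out, 0.69 on Cy5 arrays, -0.18 on Cy3 arrays (reversed) and 0.43 with that sign turned. Testis minus cord was -1.92 after quantile normalization, -2.13 on Cy5 arrays, -1.19 on Cy3 arrays, -0.47 with the sign turned, -1.75 to -1.58 with an RNA left out and -1.68 paired by animal (replicate block). Renin-angiotensin genes called in the testis numbered 0 with probes averaged and 0 to 2 with a mouse left out. For the tissue difference they numbered 0 on Cy5 arrays, 2 on Cy3 arrays, 0 in the replicate block, 0 with RNAs weighted by tissue spread (chosen after seeing the data) and 2 to 4 with an RNA left out. Probes called in the testis numbered 1352 on Cy3 arrays, 1549 with the trend and robust settings, and 846 (without mouse 6493) to 2618 with a mouse left out, among them 1036 without mouse 6069, 1278 without 6335, 1296 without 5907, 1567 without 5995 and 1614 without 5906. The Lyz2 testis ratio turned to 0.045 with its probes averaged. For r with Agt, Svop was -0.298 and Fxyd2 -0.151 on Cy5 arrays, and Endod1 0.0591 on Cy3 arrays. Of the other testis results for single genes under these settings, 793 kept their side of the threshold, 70 lost a call and 5 gained one. The causes were not tested. No intensities were used here, so signal over background is unknown.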
